A study of Mus musculus with 18 samples.

Results

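Nascent RNA of 10 antioxidant and glutathione genes was followed through the maturation of mouse fetal liver red cell precursors. The genes were chosen by name, namely Prdx2, Cat, Gpx1, Gpx4, Sod1, Sod2, Gss, Gclc, Gclm and Gsr. All 10 had a row among the 54232 genes of the deposited count table, and all 10 passed the filter on low counts in every comparison. Each was measured in 18 libraries, 3 from each of 5 erythroid populations and 3 from lineage-positive (Lin+) cells. RNA made during 45 min was labelled with 500 µM 4-thiouridine (4sU), a uridine analogue, then purified and sequenced, after sorted cells had rested for 6 h.

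The cells came from C57BL/6 fetal livers of embryonic days e12.5 to e13.5, and no population carried a mutation or drug treatment beyond the 4sU that all 18 samples received. Sorting used CD71, which takes up transferrin-bound iron, and Ter119, a surface antigen gained late in erythroid maturation. S0-Low cells (CD71-, Ter119-, lineage-negative) hold stem and early progenitor cells, S0-Medium cells are early erythroid colony-forming cells, and S1 cells (CD71 high, Ter119-) late ones. S2 (CD71 high, Ter119 medium) and S3 (CD71 high, Ter119 high) follow as Ter119 rises. Progenitors were enriched by magnetic depletion of Ter119-bearing cells, and how this applied to S2 and S3 is not given in the sources used here. Lin+ cells were taken by antibodies to CD41, CD45R, CD3e, CD11b and Ly-6G/6C, and their label gives the same cell type, primary erythroblasts, as the other samples. The sources used here do not say whether the 3 replicates came from separate litters or how many embryos were pooled, so p-values measure only the spread between these samples.

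Red cells carry oxygen on haemoglobin iron, which gives off superoxide as it oxidises. Superoxide dismutases turn superoxide into hydrogen peroxide, and catalase, peroxiredoxins and glutathione peroxidases break the peroxide down. Glutathione, the small thiol that the glutathione peroxidases use up, is built from cysteine, glutamate and glycine by glutamate-cysteine ligase and glutathione synthetase, and is returned to its reduced form by glutathione reductase with NADPH. Much of this equipment has to be made before the cell loses its nucleus.

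Total counts ranged from 9452476 to 40567976 per library, the lowest being S0-Low replicate 3. Levels are given in CPM (counts divided by library size, times a fixed factor) after TMM scaling, which sets libraries to a common scale through genes of middling fold change. Library totals give another scale: the median gene had a log2 fold change from S0-Low to S3 of -0.54 under TMM and of -1.36 under library totals. The summed CPM of 9 erythroid marker genes rose from 528 to 1083 in S0-Low to 30729 to 51042 in S3 and lay at 261 to 320 in Lin+, whose label of erythroblasts these markers go against. Of 10 myeloid markers, 8 were at 0 in every S3 library (summed CPM 0.0574 to 1.13), while their sum was 428 to 804 in S0-Low and 3166 to 5664 in Lin+. Itgam, which encodes the CD11b used in the sort, was at 0 in all populations. In bulk samples of this kind, fewer cells of a type and less RNA per cell cannot be told apart.

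The stretch before the transcription start is shown for 5 members to set genes that rose beside one that did not pass the test. Promoters from RefSeq (GRCm38.p6) were present in the table used here for 8 of the 10 members, with 4 alternative starts for Gpx4. The sequences read 5′ to 3′ on the strand of the gene and end at the base before the start. For Cat (chr2:103485154-103485403, minus strand), Gpx1 (chr9:108338830-108339079, plus strand), Gss (chr2:155592811-155593060, minus strand) and Sod1 (chr16:90220512-90220761, plus strand) they hold 250 bases. For Prdx2 (chr8:84969513-84969542, plus strand) 30 bases around a single match are given, because transcripts of Rnaseh2a reach into its upstream region from the opposite strand. Capitals mark letters that match 1 of 4 motifs.
Cat: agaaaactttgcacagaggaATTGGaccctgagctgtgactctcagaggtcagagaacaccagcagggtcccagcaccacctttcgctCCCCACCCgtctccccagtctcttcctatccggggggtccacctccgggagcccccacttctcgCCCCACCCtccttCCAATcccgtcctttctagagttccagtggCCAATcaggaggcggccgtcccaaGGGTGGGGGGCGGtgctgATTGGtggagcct
Gpx1: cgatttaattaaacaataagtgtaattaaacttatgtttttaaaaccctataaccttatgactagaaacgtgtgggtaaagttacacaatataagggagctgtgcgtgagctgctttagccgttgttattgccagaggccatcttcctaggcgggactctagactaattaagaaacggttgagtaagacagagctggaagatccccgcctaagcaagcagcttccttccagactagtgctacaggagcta
Gss: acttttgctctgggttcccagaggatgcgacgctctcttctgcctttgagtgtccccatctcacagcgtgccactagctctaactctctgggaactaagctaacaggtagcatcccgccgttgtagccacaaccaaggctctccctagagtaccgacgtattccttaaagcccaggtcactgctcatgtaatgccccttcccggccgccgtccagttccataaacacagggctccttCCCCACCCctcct
Sod1: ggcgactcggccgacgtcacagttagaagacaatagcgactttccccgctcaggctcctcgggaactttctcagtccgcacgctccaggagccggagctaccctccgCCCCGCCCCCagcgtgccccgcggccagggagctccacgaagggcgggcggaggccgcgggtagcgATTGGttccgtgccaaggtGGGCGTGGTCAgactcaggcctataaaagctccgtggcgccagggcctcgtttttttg
Prdx2: gaaagggcacaCCCCACCCaacccttgtga

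The motifs were searched on both strands of the 250 bases and were spelled as follows. The core of the antioxidant response element, bound by NRF2, was TGACNNNGC, and 10.2% of the 32851 promoters in the table held it. The GATA motif was GATAA (22.6% of promoters), the CACCC box of the Krüppel-like factors was CCNCNCCC (45.9%) and the CCAAT box was CCAAT (33.8%). The antioxidant response element core was found before Sod1, at -56 to -48 from the start, where it shares letters with a CACCC match, and before Gclm, at -134 to -126. It was found in no other of the 8 members. Cat held 4 CACCC matches, 2 of which overlap, and 4 CCAAT matches, Prdx2 held 2 CACCC matches and Gss 1, while none of the 4 motifs was present before Gpx1. The GATA letters were found only before the start of Gpx4, at 2 of its 4 listed starts. These are matches of letters and no statement on binding.

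From S0-Low to S3, nascent RNA of 8 of the 10 genes rose and that of none fell by the test. Those that rose were the peroxide-removing genes Prdx2, Cat, Gpx1 and Gpx4, the glutathione-building genes Gss, Gclc and Gclm, and the recycling gene Gsr. Across all 16555 genes tested, 13.4% were higher in S3 and 22.4% lower. The summed level of the 10 genes was 1119 to 1143 CPM in the S0-Low libraries and 5869 to 9872 CPM in those of S3. Both superoxide dismutase genes stayed outside the called set. Calls are from edgeR's two-sided quasi-likelihood test over the 15 erythroid libraries with Benjamini-Hochberg adjustment, at an adjusted p under 0.05. The same 8 genes, and no others of the 10, had every S3 library above every S0-Low library, which 16.6% of all genes tested did.

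**Figure D1:**
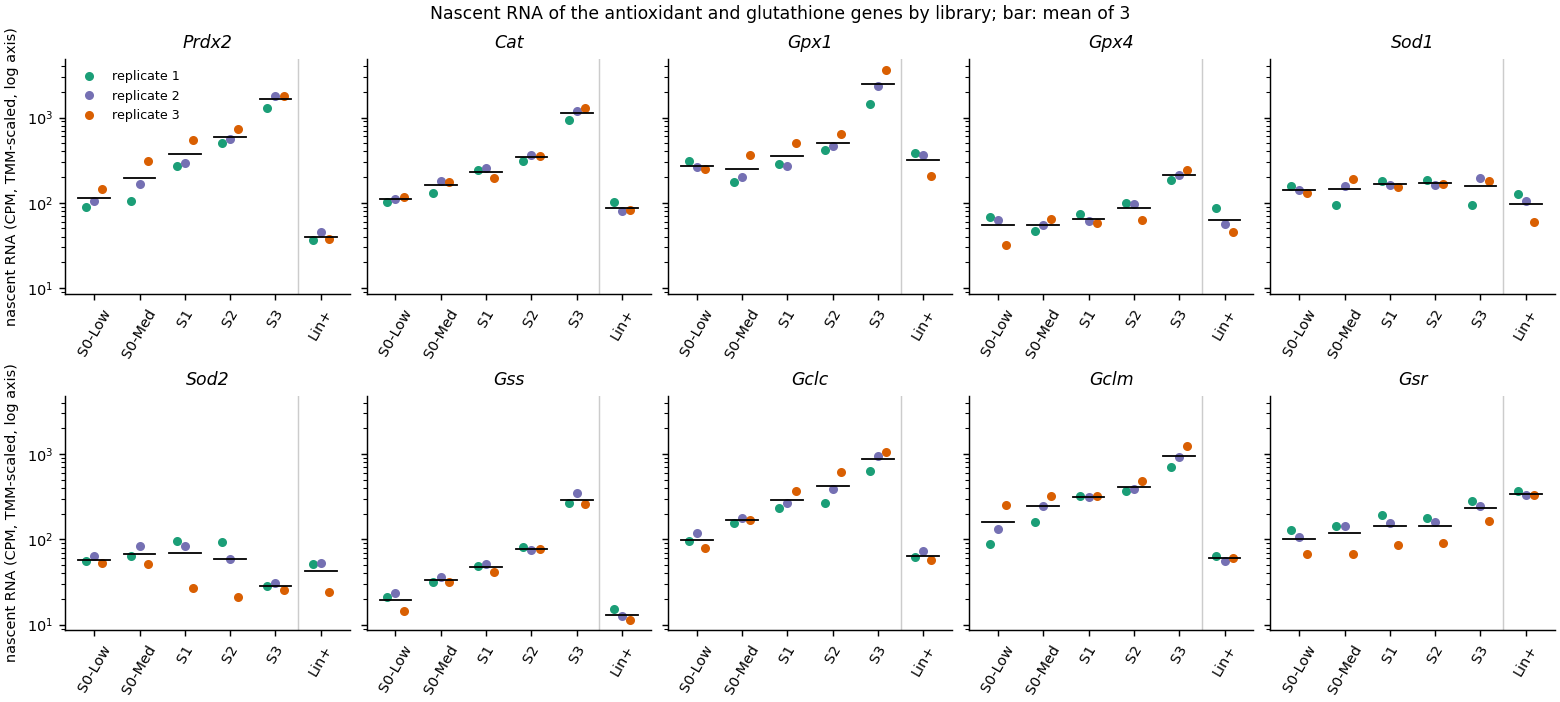
Nascent RNA of each gene in every library (y axis, CPM after TMM scaling, log axis) over the 6 populations (x axis). Points are libraries coloured by replicate number and bars are means of 3. Prdx2, Cat, Gss, Gclc and Gclm climb from S0-Low to S3 and are low in Lin+, Sod1 keeps to a narrow band, and Gsr is highest in Lin+.

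Prdx2 (ENSMUSG00000005161, chr8:84969622-84974811) encodes peroxiredoxin 2, a thiol peroxidase that is among the most abundant proteins of red cells. Its level was 90.4, 104 and 147 CPM in the S0-Low libraries, 104, 166 and 312 in S0-Medium, 270, 293 and 543 in S1, 504, 557 and 725 in S2 and 1295, 1812 and 1787 in S3. All S3 libraries lay above all others, and the ranges of the earlier neighbouring populations overlapped. From S0-Low to S3 the log2 fold change was 3.84 ± 0.44 (SE, edgeR adjusted p = 1.88e-05), a 14.4-fold ratio of means.

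Cat (ENSMUSG00000027187, chr2:103453904-103485153) encodes catalase, which splits hydrogen peroxide into water and oxygen. The libraries held 103, 111 and 116 CPM in S0-Low, 131, 181 and 175 in S0-Medium, 245, 255 and 198 in S1, 309, 364 and 358 in S2 and 937, 1200 and 1285 in S3. No neighbouring populations overlapped, Lin+ included, at 80.3 to 102 CPM. From S0-Low to S3 the log2 fold change was 3.37 ± 0.27 (SE, edgeR adjusted p = 1.38e-06).

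Gpx1 (ENSMUSG00000063856, chr9:108339080-108340342) encodes the cytosolic selenium-dependent glutathione peroxidase. It stood at 308, 260 and 250 CPM in S0-Low and at 1451, 2348 and 3634 CPM in S3, with 175 to 366 CPM in S0-Medium, 273 to 505 in S1 and 418 to 649 in S2. The ranges of the earlier populations overlapped, and all S3 libraries exceeded the rest. The log2 fold change was 3.18 ± 0.42 (SE, edgeR adjusted p = 5.55e-05). Per kilobase of its longest annotated transcript, which puts genes of different length on 1 scale, Gpx1 was the most abundant of the 10 in all 6 populations by mean, from 322 ± 36.7 CPM per kb in S0-Low to 2925 ± 1296 in S3 (SD, n = 3), and Prdx2 came next in S3 at 1012 ± 181.

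Gpx4 (ENSMUSG00000075706, chr10:80047166-80056439) encodes the peroxidase that acts on lipid peroxides within membranes. Its level was 67.5, 63.6 and 32.1 CPM in S0-Low and 183, 212 and 243 CPM in S3, the S0-Low value of replicate 3 being the lowest. The log2 fold change was 1.96 ± 0.33 (SE, edgeR adjusted p = 0.000411). Between them it ran from 46.5 to 63.9 CPM in S0-Medium, 57.7 to 73.3 in S1 and 62.3 to 99.2 in S2, ranges that overlap, and every S3 library lay above them.

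The genes that build glutathione rose as well. Gss (ENSMUSG00000027610, chr2:155563181-155592810) encodes glutathione synthetase, which adds glycine in the last step. Its level was 21.3, 23.4 and 14.5 CPM in S0-Low, 31.3, 36.6 and 32 in S0-Medium, 49, 51.4 and 41.5 in S1, 80.8, 74.7 and 77.5 in S2 and 267, 349 and 258 in S3. None of the erythroid populations overlapped with its neighbour. From S0-Low to S3 the log2 fold change was 3.88 ± 0.30 (SE, edgeR adjusted p = 1.17e-06), and the 14.8-fold ratio of the highest to the lowest erythroid mean was the largest of the 10. Per kilobase, Gss was the lowest of the 10 in S0-Low, at 6.06 ± 1.42 CPM per kb.

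Gclc (ENSMUSG00000032350, chr9:77754535-77794489) and Gclm (ENSMUSG00000028124, chr3:122245487-122267215) encode the catalytic and the modifier subunit of glutamate-cysteine ligase, the rate-limiting enzyme of glutathione synthesis. Gclc was at 96.2, 118 and 79.8 CPM in S0-Low and at 630, 950 and 1054 CPM in S3, a log2 fold change of 3.16 ± 0.35 (SE, edgeR adjusted p = 1.75e-05). Gclm was at 88.6, 133 and 254 CPM in S0-Low and at 699, 932 and 1242 CPM in S3, a log2 fold change of 2.59 ± 0.39 (SE, edgeR adjusted p = 0.000168). In between, Gclc ran from 154 to 180 CPM in S0-Medium, 233 to 369 in S1 and 268 to 609 in S2, and Gclm from 160 to 322, 312 to 319 and 366 to 480. For both subunits the S3 libraries lay above all others. The highest S0-Low value of Gclm was that of the shallow replicate 3.

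Gsr (ENSMUSG00000031584, chr8:33653238-33698162) encodes glutathione reductase. Its level was 129, 107 and 67.2 CPM in S0-Low and 285, 244 and 163 CPM in S3, with 67.9 to 145 in S0-Medium, 85.1 to 194 in S1 and 91.4 to 177 in S2, and replicate 3 was the lowest in all 5 erythroid populations. S3 did not overlap with S0-Low but did with S1 and S2. That log2 fold change of 1.19 ± 0.41 (SE, edgeR adjusted p = 0.0335) was the least secure of the 8. It was 0.40 with library totals (adjusted p = 0.437), 0.98 with at least 10 counts in every library (0.0613) and 1.01 with only the 6 libraries compared (0.0697), none of which passed. It was also not called without S0-Low replicate 2 (0.0844) or 3 (0.124) or without S3 replicate 1 (0.102) or 2 (0.0699). With only replicates 1 and 2 of every population, an alternative chosen after seeing the data, 8 of the genes were again higher, Gsr among them, as were 13.7% of all genes.

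Sod1 (ENSMUSG00000022982, chr16:90220762-90226333) encodes the copper-zinc superoxide dismutase of the cytosol, and Sod2 (ENSMUSG00000006818, chr17:13007839-13018119) the manganese enzyme of mitochondria. Sod1 was at 159, 140 and 130 CPM in S0-Low and at 93.8, 195 and 180 CPM in S3, and between them at 93.4 to 188, 155 to 179 and 161 to 186. Each erythroid population overlapped with the next in the order of maturation. Its log2 fold change was 0.13 ± 0.31 (SE, edgeR adjusted p = 0.776) and turned to -0.73 with library totals. The ratio of its highest to its lowest erythroid mean, 1.19, was the smallest of the 10. Of the stretches of 31 bases in its transcripts, 38.8% are shared with the pseudogene Gm8566, which held 868 counts over all libraries against 82492 of Sod1, so the split of reads between these genes is uncertain.

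Sod2 was at 55.8, 64.2 and 53.1 CPM in S0-Low and at 28.5, 30.7 and 25.5 CPM in S3. Every S3 library was below every S0-Low library, and the log2 fold change was -1.03 ± 0.50 (SE, edgeR adjusted p = 0.116), which did not pass the test. It passed with library totals (-1.86, adjusted p = 0.0107) and with replicates 1 and 2 only (-1.02, adjusted p = 0.0233). Sod2 was also called lower with the replicate block, which is only a check for S3 against S0-Low. In S0-Medium it ran from 51.6 to 84.8 CPM. In S1 the 3 libraries held 94.8, 84.6 and 26.8 CPM and in S2 94.5, 59.3 and 21, replicate 3 being the lowest in all 6 populations.

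Ordered by their means, Prdx2, Cat, Gss, Gclc and Gclm were lowest in Lin+ and then followed the order of erythroid maturation, with S3 at the top. Neighbours overlapped for Prdx2 from S0-Low to S2, for Gclm from S0-Low to S1, for Gclc in S1 and S2 and for Gss in Lin+ and S0-Low. Gpx1 was lowest in S0-Medium and Gpx4 in S0-Low, with S1, S2 and S3 above the other 3 populations for both. Sod1 was highest in S2 and Sod2 in S1, and Sod1 was lowest in Lin+ and Sod2 in S3. In each of Gpx1, Gpx4, Sod1, Sod2 and Gsr, 4 of the 5 neighbouring pairs in that order overlapped.

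The replicates stood apart in a repeated way. Replicate 3 was the highest of its population for Prdx2, Gpx1 and Gclm in 4 of 5 erythroid populations, and the lowest for Sod2 and Gsr in 5 of 5. The summed erythroid markers were 528, 821 and 1083 CPM in S0-Low, 3539, 3567 and 7150 in S1, 6821, 6934 and 15058 in S2 and 30729, 41021 and 51042 in S3, with replicate 3 the highest each time. The part of erythroid maturity in these differences between replicates was not tested.

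**Figure D2:**
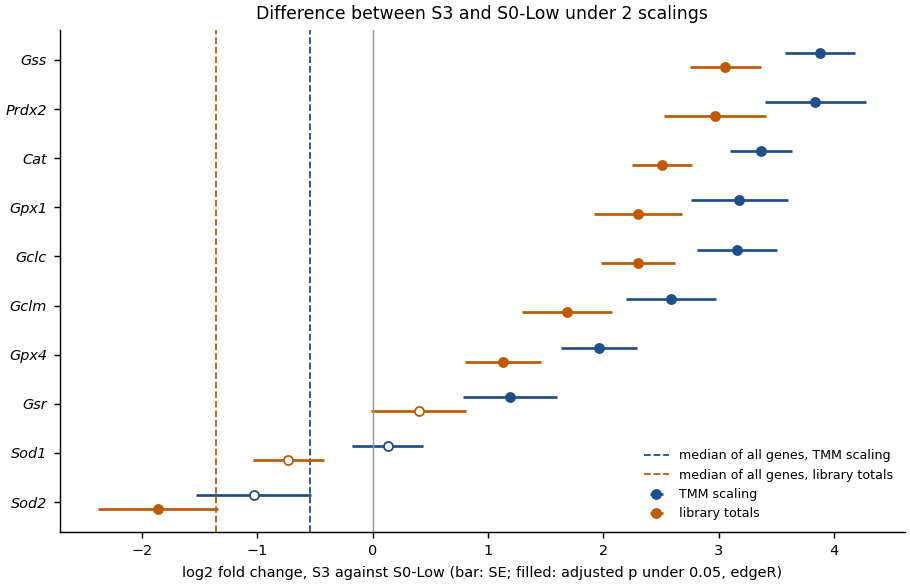
log2 fold change from S0-Low to S3 with its SE (x axis) for each gene (y axis), under TMM scaling and under library totals. Filled points passed at an adjusted p under 0.05 in edgeR and dashed lines are the medians of all tested genes, -0.54 and -1.36. Gss and Prdx2 stand at the top and the superoxide dismutase genes at the bottom under both scalings.

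Set against neighbouring populations, the last step carried the calls. Between S2 and S3, 5 of the 10 genes rose (3.26% of all genes tested were higher) and none fell (6.09% were lower). Gpx1 had the largest change at this step, a log2 fold change of 2.29 ± 0.40 (SE, edgeR adjusted p = 0.00299), followed by Gss at 1.91 ± 0.28 (0.000921) and Cat at 1.74 ± 0.25 (0.000952). Prdx2 rose by 1.46 ± 0.40 (adjusted p = 0.0313) and Gpx4 by 1.31 ± 0.32 (0.0198). The fold changes of Gclm (1.22 ± 0.37, adjusted p = 0.0513), Gclc (1.06 ± 0.33, 0.055) and Gsr (0.70 ± 0.40, 0.278) did not pass. Sod1 (-0.12 ± 0.31) and Sod2 (-1.04 ± 0.50, 0.199) did not pass either, and Sod2 was lower without S2 replicate 3 (-1.45, adjusted p = 0.0472).

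When replicate number was fitted as a block, 8 genes rose between S2 and S3, the other 3 being Gclm, Gclc and Gsr, where 7.3% of all genes did. Same-numbered libraries of S2 and S3 deviated together at r of 0.173 to 0.317, and libraries of different numbers were not compared. Gclm and Gclc also passed, for 7 genes in all, with all 18 libraries in the fit (3.82% of all genes), RLE factors (3.87%), at least 10 counts in every library (8.22%), DESeq2 (7.79%) and replicates 1 and 2 only (7.33%). With no filter Gclm passed, for 6 genes (2.89%). Fewer passed in others, 3 with library totals (Cat, Gpx1 and Gss, 1.74% of all genes) and 1, Gss, with only the 6 libraries compared (0.63%). The call for Prdx2 was lost without S2 replicate 1 (adjusted p = 0.126) or 2 (0.114) and without S3 replicate 2 (0.0576) or 3 (0.0856). That for Gpx4 was lost without any S2 replicate (0.0502 to 0.0629) or S3 replicate 3 (0.0691). Without S2 replicate 3 or S3 replicate 1, Gclc passed (0.0132 and 0.0426), and without the latter Gclm did too (0.0475).

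At the first 3 steps edgeR's test without a block, over the 15 libraries, called no member and no gene (0% of the 16555 past the filter on low counts). With the replicate number as a block it called 23, 57 and 0 genes at these steps, and again no member. With no difference at all, a share of 0.05 of the 16555 genes would reach an unadjusted p under 0.05. That p was reached by 539 genes between S0-Medium and S0-Low, 1135 between S1 and S0-Medium and 667 between S2 and S1. Gss, Cat and Gclc were among them at the first step, Prdx2 and Gclc at the second and Gss and Cat at the third. DESeq2 called Gss at the first step (log2 fold change 0.69, adjusted p = 0.0488) and at the third (0.64, 0.0349), where it called 0.284% and 0.888% of all genes, and no member at the second, where it called 2.42%. The means of 6 genes, Prdx2, Cat, Gpx4, Gss, Gclc and Gclm, were higher at each of the 4 steps, as were those of 10% of all genes tested. Of the overall log2 rise under TMM, the last step held 71.9% for Gpx1, 66.8% for Gpx4, 59% for Gsr and 51.5% for Cat. It held 49.3% for Gss, 47.2% for Gclm, 38% for Prdx2 and 33.5% for Gclc. With library totals these shares ran from 23.7% for Gclc to 75.8% for Gpx1. No share is given there for Gsr, whose rise did not pass on that scale. The first step of Gpx1 and Gpx4 was -0.15 ± 0.38 and 0.01 ± 0.32, and that of Gclc and Prdx2 0.77 ± 0.33 and 0.77 ± 0.39 (log2 ± SE). A test over all 5 populations called 7 of the 10 genes (24.6% of all genes tested), leaving out Sod1 (edgeR adjusted p = 0.969), Sod2 (0.306) and Gsr (0.181). Of these Gsr passed with the replicate block (0.00105), where 33.1% of all genes did. That block is only a check here, since same-numbered libraries of S3 and S0-Low did not all deviate together.

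**Figure D3:**
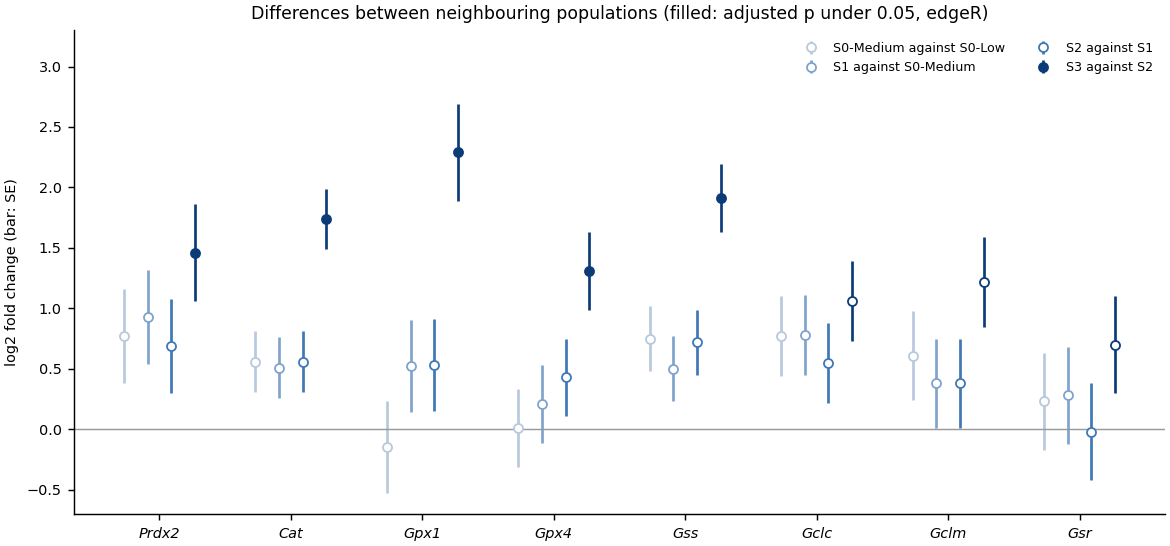
log2 fold change with its SE (y axis) between neighbouring populations for the 8 genes that rose from S0-Low to S3 (x axis). Filled points passed at an adjusted p under 0.05 in edgeR. Only S3 against S2 has filled points, for Prdx2, Cat, Gpx1, Gpx4 and Gss, and the other 3 steps lie between -0.15 and 0.93.

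Lin+ cells stood apart in Gsr, which was at 368, 329 and 335 CPM in Lin+, above every one of the 15 erythroid libraries, the highest of which held 285 CPM in S3. Against S0-Low the log2 fold change was 1.76 ± 0.39 (SE, edgeR over all 18 libraries, adjusted p = 0.0388), the single member called higher, where 0.496% of 17755 genes were. The call was lost when any 1 library of either population was left out (adjusted p = 0.0813 to 0.189) and was present with replicates 1 and 2 only. Gsr made up 30.9% ± 4.7 of the summed counts of the 10 genes in Lin+, against 8.98% ± 2.9 in S0-Low and 3.15% ± 1.6 in S3 (SD, n = 3). Markers of 3 other cell types were also higher in Lin+ than in S0-Low. The summed myeloid markers were 3166 to 5664 CPM against 428 to 804, the megakaryocyte markers 299 to 823 against 69.6 to 207 and the lymphoid markers 236 to 492 against 96.1 to 172. Among the myeloid ones, Mpo, a neutrophil granule enzyme, averaged 2928 CPM in Lin+ and 499 in S0-Low, and Lyz2, lysozyme, 687 and 29.7. From S0-Low to S3, where Gsr was 2.28-fold higher by its means, the myeloid sum went the other way, to 0.0574 to 1.13 CPM. The part of these cell types in the level of Gsr was not tested.

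None of the 10 genes was called lower in Lin+ than in S0-Low by the same test (0.22% of all genes were). Prdx2, at 37, 46 and 37.3 CPM in Lin+, had a log2 fold change of -1.50 ± 0.37 (SE, edgeR adjusted p = 0.0754), and Gclm, at 63.5, 56 and 60.7 CPM, one of -1.40 ± 0.35 (0.0778). Neither overlapped with S0-Low. With the replicate number as a block both were lower (-1.44, adjusted p = 0.00675, and -1.29, 0.0171), as were 0.648% of all genes, and both were with no filter (0.272% of all genes) and with DESeq2 (0.76%). Gclm was lower as well without S0-Low replicate 1 (-1.68, 0.0385). Against S3, 7 genes were lower in Lin+ (14.1% of all genes tested were) and none was higher (28.2% were). Prdx2 had the largest difference, -5.35 ± 0.44 (edgeR adjusted p = 1.76e-07), a 40.7-fold ratio of means, followed by Gss at -4.47 ± 0.30 (2.85e-08) and Gclm at -4.0 ± 0.39 (8.65e-07). Gclc, Cat, Gpx1 and Gpx4 were lower by log2 values of -3.77, -3.70, -2.96 and -1.75. Sod1 (-0.68 ± 0.33, adjusted p = 0.107) was lower without S3 replicate 1 (-0.94, 0.0344), and Sod2 (0.59) and Gsr (0.58) did not pass, although with library totals both were higher (1.36 and 1.34), as were 40.1% of all genes. Gsr was also higher with the replicate block, as were 5693 of 17755 genes, and Sod2 with replicates 1 and 2 only, as were 4683 of 18232. Same-numbered libraries of S3 and Lin+ did not all deviate together, so the block is only a check there. These comparisons share the S3 libraries with those above.

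Ratios between pairs of genes within a library do not depend on how libraries are scaled. The log2 ratio of Prdx2 to Prdx1, a related cytosolic peroxiredoxin, was 0.00, 0.60 and 1.97 in S0-Low and 4.60, 5.46 and 7.03 in S3. The difference of 4.84 ± 0.92 (SE) was the largest of 5 ratios, with no overlap (exact permutation test, two-sided, p = 0.1, which is as low as 3 libraries against 3 can go, and 0.167 adjusted over the 5 ratios). Prdx1 itself was at 90.1, 68.4 and 37.5 CPM in S0-Low and at 53.3, 41.2 and 13.7 CPM in S3, a log2 fold change of -0.86 ± 0.52 that did not pass (edgeR adjusted p = 0.201) and did with library totals (-1.61, 0.028). It was -0.48 without S3 replicate 3 and -1.27 without S3 replicate 1.

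The ratio of Gpx1 to Gpx4 was 2.19, 2.03 and 2.96 in S0-Low and 2.99, 3.47 and 3.90 in S3, and that of Sod1 to Sod2 was 1.51, 1.13 and 1.29 against 1.72, 2.67 and 2.82. They differed by 1.06 ± 0.39 and 1.09 ± 0.36 with no overlap (exact permutation p = 0.1 and adjusted 0.167 for each). The Gclc to Gclm ratio of the ligase subunits differed by 0.45 ± 0.56 (exact permutation p = 0.8), and by -0.09 without S0-Low replicate 3, whose ratio of -1.67 was far below the 0.12 and -0.17 of the other libraries. The ratio of Cat to Gpx1 overlapped between S0-Low and S3 (difference 0.27 ± 0.29, exact permutation p = 0.4). It ran from -1.58 to -1.10 in S0-Low, -1.06 to -0.15 in S0-Medium, -1.35 to -0.10 in S1, -0.86 to -0.35 in S2 and -1.50 to -0.63 in S3, with replicate 3 the lowest in S0-Medium, S1, S2 and S3.

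**Figure D4:**
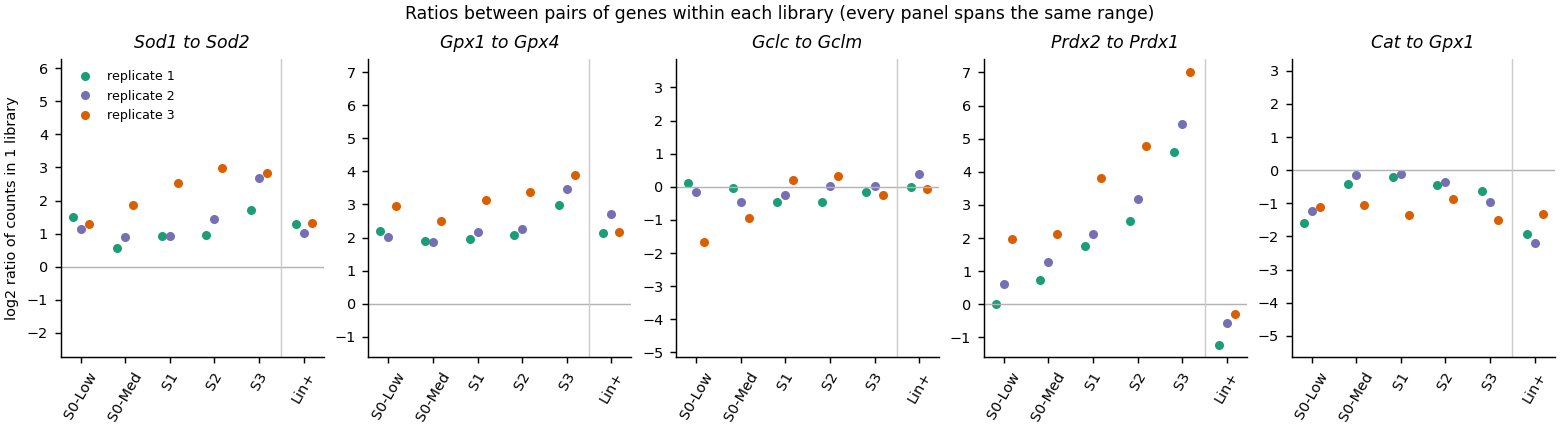
Log2 ratio of the counts of 2 genes within each library (y axis) over the 6 populations (x axis), with a panel for each of the 5 pairs and points coloured by replicate number. Prdx2 to Prdx1 climbs from 0.00 to 1.97 in S0-Low to 4.60 to 7.03 in S3 and is below 0 in Lin+, and Gclc to Gclm varies around 0.

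Of the genes with a symbol and enough counts, the 5 whose pattern over the 15 erythroid libraries was most like that of Gss were Tent5c (Pearson r = 0.984 in log2 CPM), Bsg (0.983), Top1 (0.981), Srxn1 (0.978) and Agfg1 (0.978), among 10193 genes. Those most like Sod1, the member with the smallest range, were Ciao2b (0.840), Spcs1 (0.837), Srp54b (0.837), Yeats4 (0.816) and Med28 (0.814). The points share libraries and depth, and these values are a description. Among the members, Cat and Gss had r = 0.98 and Prdx2 and Gclm 0.96 over the same 15 libraries, while Prdx2 and Sod1 had 0.27.

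Around the 10 genes, 82 further genes of the antioxidant and glutathione pathways were read in 9 lists, 74 of them tested, with 21 higher and 9 lower in S3 than in S0-Low. Over all genes 13.4% were higher and 22.4% lower. With library totals 16 were higher and 27 lower, against 6.98% and 37.6% of all genes, so that the lower calls on that scale were close to the share over all genes. Under TMM the list of NRF2, the oxidant-sensing transcription factor, with its partners and targets had the most calls. Of its 13 genes 9 were higher and 1 lower (median log2 fold change 1.67 against -0.54 over all genes). Besides Foxo3 and Nfe2 the 9 higher genes were Keap1, Nqo1, Cul3, Nfe2l2, Mafk, Bach1 and Mafg. Hmox1 (log2 fold change 0.43 ± 1.44, edgeR adjusted p = 0.835), Nfe2l1 and Maff were not called. The list holds genes that act for and against NRF2, so the count gives no direction for the pathway. With library totals 5 remained higher, Nqo1, Mafk, Foxo3, Mafg and Nfe2, and Nfe2l2, Keap1, Cul3 and Bach1 did not pass. On that scale 1 was lower, Bach2, and the list of cystine supply and glutathione turnover had more calls, 5 higher and 4 lower.

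Foxo3, a transcription factor known for its part in the oxidant defence of red cell precursors, was at 322, 230 and 621 CPM in S0-Low and at 3719, 3417 and 3629 in S3 (log2 fold change 3.2 ± 0.48, edgeR adjusted p = 0.00017). Nfe2, an erythroid relative of NRF2, was at 222, 307 and 355 CPM against 1179, 2362 and 2734 (2.83 ± 0.65, 0.00372). Bach2, a repressor that competes for the same motif, was at 25.7, 9.4 and 49.1 CPM in S0-Low and had no count in S3, and was at least 158-fold lower at a floor of 3 counts per library (adjusted p = 0.00115). Without S0-Low replicate 3 that bound for Bach2 was 98.4-fold. Its relative Bach1 went the other way, from 98, 102 and 272 CPM to 369, 552 and 584 (1.67 ± 0.46, edgeR adjusted p = 0.0116). That change did not pass with library totals (0.77, 0.176). The groups of Foxo3, Nfe2, Bach2 and Bach1 did not overlap. Stem and progenitor markers summed to 1759 to 2556 CPM in S0-Low and 28.3 to 29.8 in S3, and lymphoid markers to 96.1 to 172 and 0 to 1.08. The part of these cell types in the fall of Bach2 was not tested.

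The other peroxiredoxin genes, 6 with sulfiredoxin, gave 2 higher and 1 lower (median 0.19), and with library totals 2 higher and 3 lower, Prdx5, Prdx6 and Prdx1 (median -0.57, with 37.6% of all genes lower). Srxn1 encodes sulfiredoxin, which restores over-oxidised peroxiredoxins, and was at 21, 36.2 and 12 CPM in S0-Low and at 389, 739 and 404 in S3 (log2 fold change 4.46 ± 0.49, edgeR adjusted p = 1.5e-05). Prdx3, of mitochondria, was at 35.2, 48.7 and 40.3 CPM against 236, 228 and 104 (2.19 ± 0.35, 0.000242). Prdx6 fell from 154, 180 and 178 CPM to 46.5, 80.1 and 27.4 (-1.73 ± 0.43, 0.00638).

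Of 7 thioredoxin system genes 2 were higher and none lower (median -0.09). Txnrd2, the mitochondrial thioredoxin reductase, was at 39.1, 27.8 and 74.4 CPM in S0-Low and at 652, 730 and 775 in S3 (log2 fold change 3.93 ± 0.69, edgeR adjusted p = 0.000585). Txnl1, a thioredoxin-like protein, rose by 1.41 ± 0.28 (0.00134), and by 0.57 with library totals, where it did not pass (0.0978). Of 4 glutaredoxin genes 1 was higher and 1 lower (median 0.00). Glrx5, which acts in iron-sulphur cluster assembly, was at 50, 63.2 and 57.6 CPM against 315, 483 and 645 (3.08 ± 0.41, 6.96e-05). Glrx fell from 6.17, 9.2 and 10.6 CPM to 0, 0.315 and 2.07 (-3.43 ± 1.19, 0.0349), a call lost with only the 6 libraries compared (0.147), without any S0-Low replicate (0.051 to 0.0672) and without S3 replicate 2 (0.0884). Without S3 replicate 3 the value for Glrx was -5.65 (0.006). With library totals 1 gene of the glutaredoxin list was higher (6.98% of all genes were) and 2 were lower, Glrx and Glrx3 (37.6% were).

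Of 13 glutathione transferase genes 1 was higher and 2 lower, with a median of -3.0 (-2.93 with the genes of 3 or fewer S3 counts at their bound) and 6 lower with library totals (37.6% of all genes were). Mgst3, a microsomal member, was at 11, 12.9 and 29.4 CPM in S0-Low and at 382, 365 and 504 in S3 (log2 fold change 4.56 ± 0.65, edgeR adjusted p = 0.000106). Gsto1 fell from 40.3, 36.3 and 42.2 CPM to 0, 1.13 and 2.18 (-5.15 ± 1.04, 0.00154). Gstm1 was at 4, 3.99 and 0.083 CPM in S0-Low and at 0 in S3, and was at least 15.1-fold lower at a floor of 3 counts per library (adjusted p = 0.0118). Its S0-Low replicate 3 was near 0 as well.

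Of 11 genes of cystine supply and glutathione turnover 5 were higher and 1 lower (median -0.33), and the 5, Slc7a11, Slc3a2, Cth, Chac1 and Chac2, were also higher with library totals, where 4 were lower (Ggt5, Ggt1, Cbs and Ggt7), beside 37.6% of all genes. Slc7a11 and Slc3a2 encode the cystine importer, and Chac1 and Chac2 degrade glutathione. Chac1 was at 0.852, 1.02 and 5.15 CPM in S0-Low and at 74.4, 101 and 186 in S3 (log2 fold change 5.73 ± 1.41, edgeR adjusted p = 0.00583). Chac2 was at 4.7, 14.2 and 3.24 CPM against 141, 249 and 464 (5.26 ± 0.71, 7.31e-05). Ggt1, which breaks down glutathione outside the cell, had 133 counts in S0-Low and 2 in S3, a ratio of 0.0259 (95% interval 0.0031 to 0.0953, counting error only, adjusted p = 0.0267), and its call was lost with no filter (0.084) and without S0-Low replicate 2 (0.0674), S3 replicate 2 (0.0647) or S3 replicate 3 (0.088).

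Of 10 genes of NADPH supply 1 was higher and 3 lower (median -0.88), and 7 were lower with library totals (37.6% of all genes were). Taldo1, transaldolase of the pentose phosphate pathway, was at 123, 130 and 63.7 CPM in S0-Low and at 535, 621 and 432 in S3 (log2 fold change 2.32 ± 0.34, edgeR adjusted p = 0.000139). The isocitrate dehydrogenase genes fell, Idh2 from 143, 91.2 and 47.6 CPM to 12.3, 1.98 and 2.53 (-4.08 ± 0.66, 0.000301) and Idh1 from 57.8, 50.6 and 36.9 to 17.4, 7.12 and 3.27 (-2.39 ± 0.67, 0.013). Without S3 replicate 1 the value for Idh2 was -5.39. The 8 genes of the selenoprotein synthesis list, which holds factors that place selenocysteine in proteins such as Gpx1 and Gpx4 and the selenium carrier Selenop, gave no call in either direction (median -0.62), and 4 were lower with library totals, beside the same 37.6%. Of the other glutathione peroxidases and partners of superoxide dismutase 2 of 8 had enough counts to be tested and neither was called (median -1.18).

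**Figure D5:**
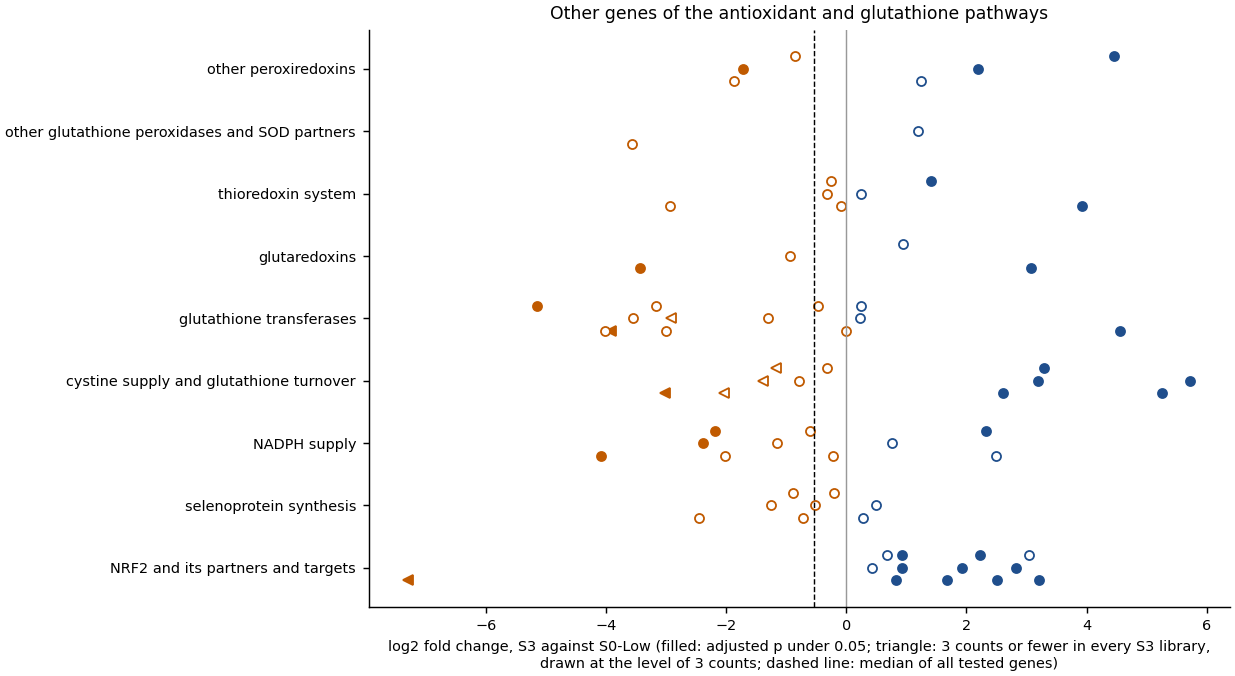
log2 fold change from S0-Low to S3 (x axis) of the 74 tested genes of the 9 lists (y axis). Filled symbols passed at an adjusted p under 0.05 in edgeR, triangles had 3 counts or fewer in every S3 library and are drawn at the level of 3 counts, and the dashed line is the median of all genes, -0.54. The NRF2 list holds 9 of the 21 higher genes, and glutathione transferases and NADPH supply lie mostly to the left.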

How the data were processed

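The deposited counts per gene of 18 libraries were used. The authors built strand-specific libraries by PCR, with no molecular identifiers, quantified reads with kallisto 0.43.0 (build GRCm38 in the submitters' processing notes) and deposited whole-number counts, neither normalized nor pooled. The transcript set, strand setting and treatment of introns are not given in the sources used here. Kallisto splits reads between near-identical sequences. The share of 31-base stretches that a member's transcripts share with other genes was 38.8% for Sod1, 11.5% for Prdx2, 10.7% for Gss, 6.64% for Gclm, 3.03% for Sod2 and 0 for the rest.

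Groups and replicate numbers come from the labels. Counts were tested with edgeR 4.0.16 in R 4.3.3 (TMM, filterByExpr, quasi-likelihood test, population as the only factor, Benjamini-Hochberg over all tested genes): 15 erythroid libraries and 16555 genes (common biological coefficient of variation 0.795), or all 18 libraries and 17755 genes (0.771) where Lin+ was compared. The step was tested on simulated data. CPM were scaled by TMM over all 18 libraries, and transcript lengths are GENCODE's for build NCBIM37. Ratios used counts plus 0.5 and an exact permutation test. Python 3.11.15 with numpy 2.4.6, pandas 2.3.3, scipy 1.17.1 and matplotlib 3.10.9 was used otherwise.

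Alternatives were DESeq2 1.42.0, RLE factors, library totals, globin genes left out, no filter, at least 10 counts in every library, the replicate block, other library sets, a pseudocount of 1 and each replicate left out, with replicates 1 and 2 alone added after seeing the data. Libraries with the same replicate number deviated together from their population means (r over 0.1 in every pair) in all comparisons but S3 with S0-Low (0.084 to 0.135) and with Lin+ (0.091 to 0.16). For S3 with S2 r was 0.173 to 0.317 and for Lin+ with S0-Low 0.192 to 0.302. Libraries of different numbers were not compared in this way. What a number stands for is not given.

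Members, lists, motifs and tests were chosen with earlier results of these data known. Named pathway genes were at most 3 called per list by size of log2 fold change, plus Prdx1, Bach1 and Hmox1. Genes most like a member by Pearson r of log2(CPM + 0.5) needed a symbol and a mean of 100 normalized counts. A floor of 3 counts was 0.317 CPM in the shallowest library. Of 10 erythroid markers 9 had a row. Coordinates and promoters are RefSeq's for GRCm38.p6. Intervals and floors cover counting error only.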

Additional observations from a re-analysis of the deposited data

How the results depend on the processing

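For S3 against S0-Low, 8 members were higher under the main settings and 7, without Gsr, with library totals, at least 10 counts, only the 6 libraries and 4 of the 6 fits that left out a replicate. In that comparison 1 was lower, Sod2, with library totals (37.6% of all genes), with the replicate block (4374 of 16555) and with only replicates 1 and 2 (4141 of 17255). Same-numbered libraries of S3 and S0-Low did not all deviate together, so the block is only a check there, as it is for Prdx1 (-0.94, adjusted p = 0.048). DESeq2 called 1 member at the first step and 1 at the third. In S3 against S2 the members higher were 3 with library totals, 8 with the block, 7 with all 18 libraries, RLE, at least 10 counts, DESeq2 or only replicates 1 and 2, 6 with no filter, 1 with only the 6 libraries compared and 3 to 7 with each replicate left out, and 1 was lower with only replicates 1 and 2 and 0 to 1 with each replicate left out. Over all 5 populations 7 members passed, 8 with the block and 9 with only replicates 1 and 2. In Lin+ against S0-Low none was higher with any replicate left out (0 in each), and 2 were lower with no filter, the block or DESeq2 (0 to 1 with a replicate left out). In Lin+ against S3, 2 were higher with library totals (40.1% of all genes). With the block 1 was, Gsr (5693 of 17755 over all genes), and with only replicates 1 and 2 also 1, Sod2 (4683 of 18232). Pathway genes lower in S3 than in S0-Low numbered 15 with all 18 libraries (4328 of 17755 over all genes) and with only replicates 1 and 2 (4141 of 17255). They numbered 27 with library totals (6223 of 16555), 19 with the block (4374 of 16555) and 18 with DESeq2 (4849 of 16555). With each replicate left out they numbered 7 (3018 of 17306) to 14 (3837 of 17633). Those higher ran from 16 with library totals (1156 of 16555) to 24 with the block (2640 of 16555). The cause of these moves was not tested.

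Of the single values under alternatives, 1158 kept their direction and side of the threshold, 38 gained a call, 37 lost it and 17 changed sign. Sod1 in S3 against S0-Low was -0.73 with library totals, -0.09 with at least 10 counts, -0.07 with only the 6 libraries, -0.05 with only replicates 1 and 2 and -0.07 to 0.38 with each replicate left out. For S3 against S2 it was -0.32 to 0.12 with each left out, and 0.12 for Lin+ against S3 with library totals. Gpx1 in S0-Medium against S0-Low was -0.57 to 0.02 with each left out. Gpx4 in S0-Medium against S0-Low was -0.03 with RLE, at least 10 counts and DESeq2, -0.01 with library totals, -0.37 with only replicates 1 and 2 and -0.27 to 0.17 with each left out. Gpx4 in Lin+ against S0-Low was -0.10 to 0.39 with each left out. The Gclc to Gclm ratio ran from -0.09 to 0.80 with each left out. The replicates 1 and 2 setting and the pathway lists' library sets were chosen after seeing the data.

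Library depth and 3 libraries a group limit these values. The exact sign-flip test over pairs, whose smallest p is 0.25, applies the pairing to the ratios.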
